A study of Mus musculus with 44 samples.

Results

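The regions described here are 1092 of the 152393 accessible chromatin peaks of the series, chosen because they lost accessibility strongly in the inner cell mass (ICM) of both *Pou5f1*-KO and *Sox2*-KO mouse embryos. Members were selected on measured values, and a peak was a member if the KO mean minus the Ctrl mean was -1.5 or lower in all 4 ICM comparisons, *Pou5f1* and *Sox2* in early and late ICM. Values are rlog values, a log2 measure of accessibility that pulls weak peaks towards their mean, so that a difference of -1 is close to a 2-fold loss for a strong peak and understates the change of a weak one. The 4 ICM differences chose the members, and their values are therefore given below as a description without a test. A set of 371 peaks served as the nearest comparison. These met the same limit of -1.5 in both *Pou5f1*-KO ICM stages, with median differences of -1.86 and -1.98, while both *Sox2*-KO differences stayed above -0.5. They are called the Oct4-only peaks.

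Accessibility was measured by ATAC-seq, in which Tn5 transposase inserts adapters into open DNA, in 44 libraries of 12 groups. Those of the *Pou5f1* line, Ctrl and KO, were early (E2.75) or late (E3.25) morulae, 3 libraries per group, or early (E3.75) or late (E4.5) ICM, 4 libraries per group. *Sox2* Ctrl and KO embryos were sampled as early and late ICM only, with 4 libraries per group. All embryos were of B6C3F1 background, came from superovulated females and were pooled within a library. KO embryos lacked the maternal and the zygotic gene, because the mothers carried floxed alleles deleted in the oocyte by Zp3-Cre and the fathers passed on a null allele, marked by mKO2 for *Pou5f1* and by EGFP for *Sox2*. Ctrl embryos shared the maternal deletion and kept 1 intact zygotic copy, so no group is wild type, and the fluorescent reporter sorted KO from Ctrl embryos. The ICM embryos, but not the morulae, were cultured with 1 µM of the MEK inhibitor PD0325901 until the blastocyst stage, and the ICM was then isolated by immunosurgery, so stage cannot be told apart from culture, inhibitor and isolation. Replicates are separate pools whose shared litters or days are not stated. The p-values rest on the spread between pools, estimated as 1 spread per peak over all 12 groups. A comparison with a group more variable than the rest can thus have too small an SE.

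Oct4, the product of *Pou5f1*, is a POU-domain transcription factor that reads the octamer sequence, and Sox2 is an HMG-box factor that bends DNA at a short Sox sequence. The factors can bind side by side on a composite OCT-SOX element, and such elements are found in enhancers of the pluripotent epiblast. An enhancer is a stretch of DNA that raises transcription of a gene, often from far away, and an active enhancer is usually accessible to Tn5. The ICM arises when outer cells of the morula become trophectoderm, and it later splits into epiblast and primitive endoderm.

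Neither targeted gene had a member within 10 kb. The allele check was limited. The study describes the removal of *Pou5f1* exons. Its methods place loxP sites around them on the floxed allele, which is maternal and deleted in Ctrl and KO embryos alike, and describe the paternal KO allele by its inserted cassettes, so the peaks over *Pou5f1* were not taken as a check of the labels. The peak at chr17:35509358-35509557 had late ICM means of 2.62 in Ctrl and 2.60 in KO. In the window inside the deleted *Sox2* gene (chr3:34650925-34651124) the *Sox2* Ctrl late ICM libraries ranged from 2.42 to 3.50 and the KO libraries from 1.14 to 2.91, so the ranges overlapped. Chromatin near lineage genes was looked at because cell composition can differ. Over the 77 peaks within 10 kb of 11 trophectoderm genes, the library medians in late ICM ranged from 3.47 to 3.84 in *Pou5f1* Ctrl, from 3.58 to 3.98 in *Pou5f1*-KO, from 3.40 to 3.74 in *Sox2* Ctrl and from 3.80 to 4.05 in *Sox2*-KO. The *Sox2* ranges did not overlap, KO above Ctrl, and 61 of the 77 peaks had a higher mean in *Sox2*-KO late ICM, with a median difference of 0.40. Over the 48 peaks near 10 primitive endoderm genes they ranged from 2.84 to 3.13, from 2.82 to 3.15, from 2.71 to 3.11 and from 2.90 to 3.45 in the same order. Over the 253 peaks near 33 naive pluripotency genes they ranged from 3.97 to 4.25 in *Pou5f1* Ctrl and from 3.43 to 3.57 in *Pou5f1*-KO, without overlap, and from 3.97 to 4.24 in *Sox2* Ctrl and from 3.83 to 4.04 in *Sox2*-KO. Of these 253 peaks, 3 were members. The part of cell composition in the losses was not tested, and in pooled embryos fewer cells with an open site cannot be told apart from a less open site in each cell.

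The sequences of the members show what the rule did not use. Each window is 200 bp long, and the composite word searched on both strands was TTGT, 1 base of any kind, then ATGCAAAT, with at most 2 mismatches in the 12 stated bases. The first 12 lines below are the stretches that held this word in members beside genes of interest or in members with a result outside the ICM. They are written 5′ to 3′ on the strand of the word, the word is in capitals, and the bases are those of the reference genome GRCm38 (mm10).

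*Dppa3* (chr6:122624669-122624705, minus strand): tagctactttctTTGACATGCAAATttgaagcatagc
*Utf1* (chr7:139945669-139945705, minus): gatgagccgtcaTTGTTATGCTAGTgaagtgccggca
*Klf5* (chr14:99354197-99354233, minus): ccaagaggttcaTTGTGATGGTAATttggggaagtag
*Tfap2c* (chr2:172577424-172577460, plus): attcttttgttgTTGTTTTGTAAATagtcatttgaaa
*Il6st* (chr13:112462556-112462592, minus): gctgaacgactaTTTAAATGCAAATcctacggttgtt
*Lifr* (chr15:7116199-7116235, plus): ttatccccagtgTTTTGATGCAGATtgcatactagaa
*Suz12* (chr11:79980785-79980821, plus): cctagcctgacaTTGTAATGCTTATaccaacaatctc
*Eed* (chr7:90025051-90025087, minus): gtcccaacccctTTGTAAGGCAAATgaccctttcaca
*Socs2* (chr10:95456314-95456350, plus): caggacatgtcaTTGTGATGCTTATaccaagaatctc
*Ubtf* (chr11:102340616-102340652, minus): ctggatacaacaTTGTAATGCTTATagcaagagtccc
*Myo10* (chr15:25724717-25724753, minus): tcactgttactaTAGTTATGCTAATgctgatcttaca
*Tbc1d24* (chr17:24203309-24203345, plus): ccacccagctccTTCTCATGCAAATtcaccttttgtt

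Counted from 1 at the first base of the word, with the free base at position 5, the *Dppa3* word departed from the composite by T4A, in its Sox part, and kept the whole octamer. The *Tbc1d24* word departed by G3C and likewise kept the octamer. The *Eed* word departed by T7G, within the octamer. The *Klf5* word carried C9G and A10T, the *Utf1* word A10T and A12G, and the *Tfap2c* word A6T and C9T, so these 3 words kept the whole Sox part. Several lines shared the change A10T, and it is taken up below. The *Suz12*, *Socs2* and *Ubtf* words all carried A10T and A11T.

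Many members were also alike over most of their window. A member was called like another where blastn aligned at least 100 bp at 80% identity or more, and members linked in this way formed a family. This grouped 411 members (37.6%) into 19 families, of which 6 held 8 or more members and together 371 members (34.0%). The large families are numbered here by size. The lines below give stretches from 5 of them, again with the best match to the composite word in capitals. They come from members with large losses and, for *Pecam1* and *Eomes*, from members at listed genes, and were picked with the values and the sequences in view to show alike copies. Other members of these families held other best matches, so the lines do not show the spread within a family, and the lines of family 4 do not carry the match most common in it.

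Family 1, *Cntn5* (chr9:11107384-11107420, minus): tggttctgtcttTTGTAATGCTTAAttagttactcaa
Family 1, *Cyp4a31* (chr4:115558364-115558400, plus): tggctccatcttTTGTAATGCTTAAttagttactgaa
Family 1, *Clec2e* (chr6:129086215-129086251, minus): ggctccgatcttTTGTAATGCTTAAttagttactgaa
Family 2, *Cntn5* (chr9:11106385-11106421, minus): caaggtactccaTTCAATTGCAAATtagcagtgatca
Family 2, *Grik2* (chr10:49908298-49908334, minus): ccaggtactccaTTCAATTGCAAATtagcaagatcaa
Family 2, *Vmn2r96* (chr17:18523540-18523576, minus): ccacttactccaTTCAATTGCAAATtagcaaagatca
Family 4, *Rapgef5* (chr12:117261324-117261360, minus): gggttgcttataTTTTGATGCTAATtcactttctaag
Family 4, *1810013L24Rik* (chr16:9083887-9083923, plus): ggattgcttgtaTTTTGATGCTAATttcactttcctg
Family 4, *Osbpl6* (chr2:76400332-76400368, minus): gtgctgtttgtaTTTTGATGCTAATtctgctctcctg
Family 5, *Kmt5b* (chr19:3758081-3758117, plus): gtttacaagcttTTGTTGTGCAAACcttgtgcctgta
Family 5, *Ndufb5* (chr3:32758724-32758760, minus): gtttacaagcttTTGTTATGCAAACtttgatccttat
Family 5, *Pecam1* (chr11:106724538-106724574, minus): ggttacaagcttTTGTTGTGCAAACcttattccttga
Family 5, *Eomes* (chr9:118406277-118406313, minus): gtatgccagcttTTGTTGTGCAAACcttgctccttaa
Family 6, *Vmn2r79* (chr7:87099767-87099803, minus): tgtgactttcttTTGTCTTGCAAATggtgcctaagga
Family 6, *Nmbr* (chr10:15793341-15793377, plus): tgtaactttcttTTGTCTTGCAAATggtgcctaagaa
Family 6, *Scgb2a2* (chr19:9514061-9514097, minus): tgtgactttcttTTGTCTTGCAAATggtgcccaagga

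Family 3 seldom held the composite word, and its most common best match was in 13 of its 62 members, so a whole window is given for it, from the member upstream of the odorant receptor gene *Olfr857* that is described below for its larger loss in *Sox2*-KO. The window of the *Cntn5* member of family 2 is given beside it, because it lies less than 1 kb from the *Cntn5* member of family 1. Both are on the plus strand, and the best match to the composite word is in capitals.

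*Olfr857* (chr9:19694481-19694680): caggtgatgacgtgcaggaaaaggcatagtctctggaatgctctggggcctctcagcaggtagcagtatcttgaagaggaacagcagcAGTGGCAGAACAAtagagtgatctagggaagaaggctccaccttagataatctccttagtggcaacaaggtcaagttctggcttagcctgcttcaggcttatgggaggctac
*Cntn5* (chr9:11106333-11106532): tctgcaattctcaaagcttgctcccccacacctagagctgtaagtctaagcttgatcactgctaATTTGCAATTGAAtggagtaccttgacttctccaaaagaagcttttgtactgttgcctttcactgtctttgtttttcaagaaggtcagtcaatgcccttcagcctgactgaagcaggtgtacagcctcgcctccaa

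In Ctrl embryos the members were weakly accessible in the morula and strongly accessible in the ICM. The median rlog over the members was 2.06, 1.80 and 1.77 in the 3 *Pou5f1* Ctrl morula libraries and 1.22, 1.53 and 1.54 in the Ctrl late morula libraries. It ranged from 3.59 to 4.31 over the *Pou5f1* Ctrl early ICM libraries and from 4.02 to 4.31 over the late ICM libraries. The *Pou5f1*-KO early ICM libraries ranged from 1.05 to 1.58 and the late ICM libraries from 0.89 to 1.36. The *Sox2* line gave like levels, with Ctrl medians from 3.64 to 4.06 and from 4.11 to 4.29 and KO medians from 1.47 to 1.91 and from 1.25 to 1.65 in early and late ICM. Every KO library of the ICM thus lay more than 1 unit below every Ctrl library in the median of the members, while the median over all peaks stayed between 2.35 and 2.63 in all 44 libraries.

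**Figure D1:**
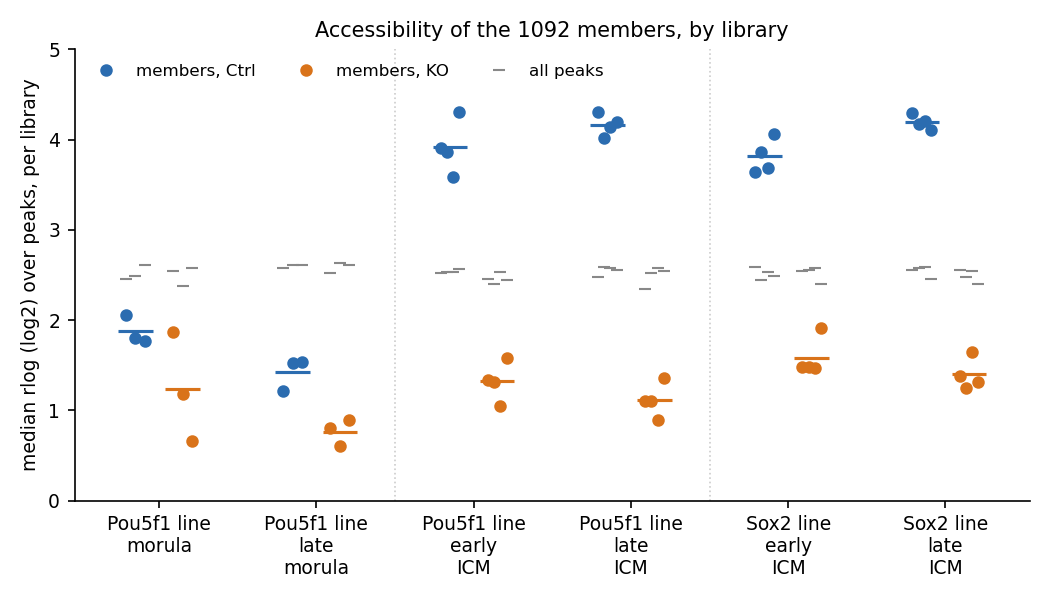
Median rlog (log2) of the 1092 members in each library (filled points, blue Ctrl, orange KO, with a bar at the mean of the library medians) and of all peaks (grey dashes), by line and stage. In the ICM the Ctrl points sit between 3.59 and 4.31 and the KO points between 0.89 and 1.91, while all peaks sit between 2.35 and 2.63.

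The rise in Ctrl embryos was shared by nearly all members. The Ctrl early ICM mean was above the Ctrl late morula mean in 1088 members (99.6%, against 48.2% of all peaks), and by 1 or more in 1029 (94.2%, against 16.4%). In the *Pou5f1*-KO, 159 members (14.6%) had a lower mean in early ICM than in the late morula, against 51.6% of all peaks, and 684 (62.6%) had a lower mean in late ICM than in the early morula, against 46.3%. These stage shares use the ICM libraries that chose the members and are a description.

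The median ICM difference of the members was -2.36 in *Pou5f1*-KO early ICM, -2.82 in *Pou5f1*-KO late ICM, -2.02 in *Sox2*-KO early ICM and -2.55 in *Sox2*-KO late ICM. In 852 members (78.0%) every KO library lay below every Ctrl library in all 4 comparisons, against 0.988% of all peaks. The difference was more negative in late than in early ICM for 860 members (78.8%, against 51.0% of all peaks) in *Pou5f1*-KO and for 846 (77.5%, against 52.2%) in *Sox2*-KO. It was more negative in *Pou5f1*-KO than in *Sox2*-KO for 756 (69.2%, against 54.1%) in early and 678 (62.1%, against 52.3%) in late ICM. All these shares use the values that chose the members, so a distance from all peaks was built in, and they are a description. At the edge of the rule, the least negative difference was -1.5010 for a member in an intron of *Slc10a7* and -1.5018 for one in an intron of *Fgf14*, and -1.4998 and -1.4996 for the peaks near *Nrip1* and *Senp2* that just missed.

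The largest losses, by the mean of the 4 ICM differences, were not at textbook pluripotency genes. The member 66.1 kb upstream of *Thsd7a*, a gene for a membrane protein with thrombospondin repeats, read 5.48, 5.13, 4.79 and 5.94 in *Pou5f1* Ctrl early ICM and 1.28, 2.41, 0.87 and 2.11 in KO. In late ICM it read 5.56, 5.40, 5.96 and 6.20 in Ctrl and 1.33, 1.34, 1.05 and 0.97 in KO. In the *Sox2* line the late ICM values were 5.67, 5.22, 5.92 and 6.06 in Ctrl and 1.57, 1.20, 1.51 and 1.19 in KO. The groups were far apart in each comparison, with differences of -3.67 and -4.61 in *Pou5f1*-KO and -3.45 and -4.35 in *Sox2*-KO early and late ICM. The next 7 were nearest to *Rbmxl2*, *Gpr158*, *Olfr761*, *Pik3c3*, *Cntn5* (2 members) and *Cyp4a31*, and their 28 differences ran from -4.42 to -2.75. Of these 8 members, 5 were in the large sequence families, 3 of them in family 1.

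Outside the libraries that chose them, the members could be tested. In *Pou5f1*-KO late morulae, 65 members (5.95%) were lower and 0 were higher at an adjusted p under 0.05 in limma (Benjamini-Hochberg over all peaks), against 0.539% and 0.108% of all peaks. The differences of the 65 ran from -3.45 to -1.58. The 65 had a median Ctrl late morula level of 3.31 and the other members 1.29. The Ctrl level is itself part of the difference, and the levels are given as a description. At an unadjusted p under 0.05 the counts were 271 lower and 2 higher, which is 24.8% and 0.183% of members against 4.92% and 3.79% of all peaks. In 298 members (27.3%) every KO library lay below every Ctrl library, against 8.94% of all peaks, and the median difference was -0.50, against -0.01 over all peaks. That the replicate numbers pair the libraries is inferred from correlations and was not stated. With a block on the number, the count of members lower was 108, and that of all peaks lower went from 822 to 2469. Leaving out 1 of the 3 libraries of a group brought the 65 members to 36, 28 and 35 without KO replicate 1, 2 and 3. They became 39, 25 and 27 without Ctrl replicate 1, 2 and 3. All peaks lower went from 822 to 490, 405 and 414 and to 544, 301 and 382 in the same order.

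**Figure D2:**
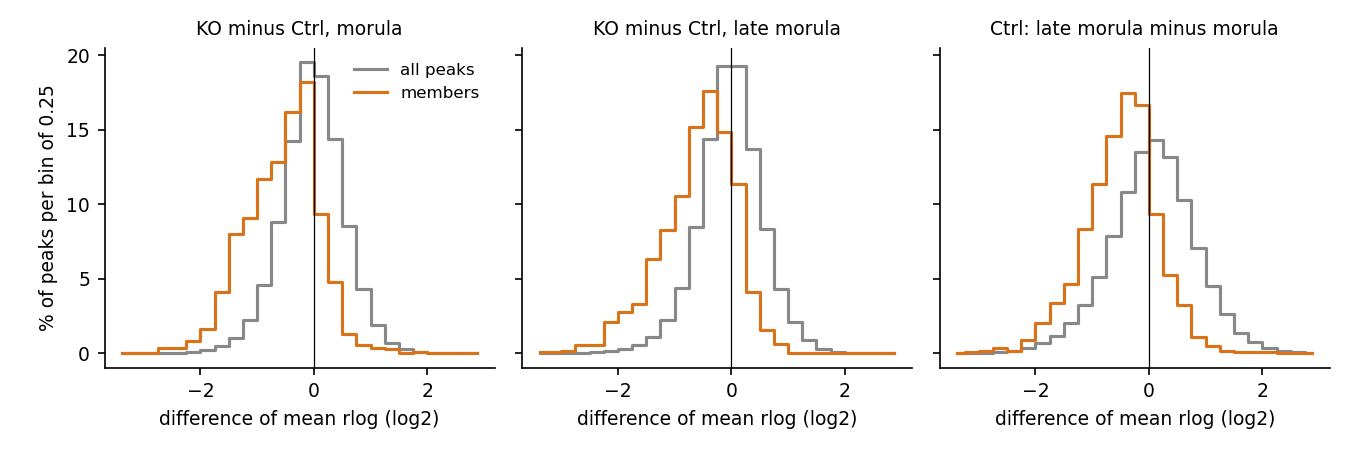
Share of peaks per bin of 0.25 by difference of mean rlog (log2) for *Pou5f1*-KO minus Ctrl in the morula, the same in the late morula, and late morula minus morula in Ctrl, for the members (orange) and all peaks (grey). The members' curves lie left of those of all peaks, with medians of -0.48, -0.50 and -0.43 against -0.02, -0.01 and 0.08.

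The smallest adjusted p in late morulae belonged to a member in an intron of *Cers6*, a ceramide synthase gene (chr2:69047871-69048070, nearest start site *Nostrin*). It read 4.81, 5.14 and 4.81 in Ctrl and 2.03, 1.23 and 1.17 in KO late morulae, and fell by 3.45 (SE 0.45, limma adjusted p 1.5e-07). All 3 KO libraries lay far below the lowest Ctrl library. The member in an intron of *Slc10a7*, a gene of the solute carrier 10 family (chr8:78514804-78515003), read 4.46, 4.46 and 4.16 in Ctrl and 1.23, 0.34 and 2.11 in KO, a fall of 3.14 (SE 0.46, limma adjusted p 5e-06). This is the member that only just met the rule, with a difference of -1.5 in *Sox2*-KO early ICM against -3.02 and -3.34 in *Pou5f1*-KO ICM.

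The member in an intron of *Myo10*, which encodes an unconventional myosin of filopodia, read 4.14, 5.03 and 5.23 in Ctrl and 1.82, 1.49 and 2.83 in KO late morulae and was lower in KO by a difference of -2.75 (SE 0.43, limma adjusted p 1.5e-05). The member 39.1 kb upstream of *Socs2*, a suppressor of cytokine signalling, read 4.52, 4.73 and 4.75 in Ctrl and 2.66, 1.99 and 1.73 in KO and fell by 2.54 (SE 0.41, limma adjusted p 3.3e-05). The member far upstream of *Snx16*, a sorting nexin gene, read 3.93, 4.37 and 3.95 in Ctrl and 1.06, 1.13 and 1.72 in KO and fell by 2.78 (SE 0.45, limma adjusted p 4e-05). In each of these 5 members the KO and Ctrl libraries did not overlap.

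The Oct4-only peaks, with a median Ctrl late morula level of 2.58 against 1.39 for the members, gave a median difference of -0.77, and 70 of the 371 (18.9%) were called lower. Their levels differ from those of the members and the shares were not tested against each other.

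In early morulae 24 members (2.20%) were lower and 0 higher in *Pou5f1*-KO by limma at an adjusted p under 0.05, against 0.185% and 0.0518% of all peaks, with differences from -2.65 to -1.45. At an unadjusted p under 0.05 the counts were 279 lower and 9 higher, which is 25.5% and 0.824% of members against 4.63% and 3.61% of all peaks. The groups did not overlap, KO below Ctrl, in 152 members (13.9%, against 5.95% of all peaks), and the median difference was -0.48, against -0.02. The KO libraries disagreed among themselves. Their member medians were 1.87, 1.18 and 0.66, so that KO replicate 1 lay inside the range of the Ctrl libraries, 1.77 to 2.06, and it was the highest of the 3 KO libraries in 23 of the 24 members called and in 699 of all members (64.0%, against 34.7% of all peaks). It stood apart at the Oct4-only peaks too, with a median of 2.66 beside 1.86 and 1.60. Why this library stood apart, and whether its embryos fully lacked Oct4, was not tested. Without KO replicate 1 the count of members lower was 111, and without KO replicate 2 or 3 it was 4 or 0. The count of all peaks lower moved with it, from 282 to 962, 52 and 12. Without Ctrl replicate 1, 2 or 3 the count of members lower was 12, 11 or 13, beside 147, 129 or 145 of all peaks. A fit on the compared libraries alone gave 3 members, beside 22 of all peaks. One with a block on the replicate number gave 10, beside 120 of all peaks.

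The member in an intron of *Dtd1*, a D-aminoacyl-tRNA deacylase gene (chr2:144715411-144715610, nearest start site *Scp2d1*), had the smallest adjusted p in early morulae. It read 4.42, 5.03 and 4.74 in Ctrl and 3.28, 1.63 and 1.32 in KO and fell by 2.65 (SE 0.47, limma adjusted p 0.0011). The member 26.3 kb downstream of *Tfap2c*, an AP-2 factor gene active in trophectoderm and pluripotent cells, read 3.73, 4.38 and 3.97 in Ctrl and 2.13, 1.60 and 0.90 in KO and fell by 2.49 (SE 0.45, limma adjusted p 0.0015). In both members the KO libraries lay below all Ctrl libraries, replicate 1 included. Without KO replicate 3 neither call held (limma adjusted p 0.071 for the *Dtd1* and 0.073 for the *Tfap2c* member), and the *Tfap2c* call was also lost in a fit on the compared libraries alone (limma adjusted p 0.051).

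The *Cers6* member fell in early morulae as well, by 2.35 (SE 0.45, limma adjusted p 0.0032), with KO replicate 1 at 4.28 beside 1.82 and 2.02. In other members KO replicate 1 was at or near the Ctrl level. The *Socs2* member read 5.56, 5.57 and 5.69 in Ctrl and 5.44, 3.35 and 2.15 in KO (fall of 1.96, SE 0.41, limma adjusted p 0.0091). The member upstream of *Osbpl6* read 4.60, 4.92 and 4.76 in Ctrl and 4.48, 1.37 and 0.71 in KO (fall of 2.57, SE 0.51, limma adjusted p 0.0051). The other members that fell in early morulae had limma adjusted p from 0.0051 to 0.049. They were nearest to *Fhl2*, *Fam53a*, *Synrg*, *Ubtf*, *Nol9*, *Nt5e*, *Pcmtd1*, *Kmt5b*, *Snx16*, *Zfp42*, *Gzma*, *Cachd1*, *Gpnmb*, *Etnk1*, *Rdh16*, *Hhla1*, *Lama2*, *Ncam2* and *Tbc1d24*. None of the early morula calls held without KO replicate 3. The *Cers6*, *Socs2* and *Osbpl6* calls were lost without KO replicate 2 as well, and the *Socs2* and *Osbpl6* calls in the fit on the compared libraries alone.

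In all, 13 members fell at both morula stages, of 124 peaks that did so in the whole series. A different effect at the 2 stages was called by limma for 0 members and for 0 of all peaks, with 20 members lower and 12 higher at an unadjusted p under 0.05. These were 1.83% and 1.10% of members, close to or below the 1.99% and 1.86% of all peaks, and a member that passed at only 1 stage is not shown to differ between them. The member downstream of *Pck2*, the mitochondrial phosphoenolpyruvate carboxykinase gene, passed at only 1 stage. It read 4.02, 3.62 and 3.15 in Ctrl and 2.04, 1.47 and 0.80 in KO late morulae (fall of 2.16, SE 0.52, limma adjusted p 0.018), and its early morula difference was 0.23 (limma adjusted p 0.97). The late morula call was lost without KO replicate 2 or 3 or without Ctrl replicate 1 or 2, with limma adjusted p from 0.077 to 0.21.

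Far more members fell than rose from the early to the late morula in Ctrl embryos. By limma 80 members (7.33%) were lower and 3 (0.275%) higher in Ctrl late than early morulae at an adjusted p under 0.05, against 2.79% and 3.65% of all peaks, and the falls ran from 3.19 to 1.09 in size. In 224 members (20.5%, against 10.5%) every late morula library lay below every early one, and the median difference was -0.43, against 0.08. The member 5.93 kb upstream of *Pde4a*, a cAMP phosphodiesterase gene, read 5.34, 5.76 and 5.65 in early and 2.29, 2.72 and 2.84 in late Ctrl morulae (fall of 2.97, SE 0.45, limma adjusted p 6.9e-06). The member near *Ubtf*, the gene for an RNA polymerase I factor, read 4.57, 3.90 and 4.16 and then 0.55, 1.37 and 2.08 (fall of 2.88, SE 0.52, limma adjusted p 0.00011) and had a Ctrl late ICM mean of 4.14. The *Ubtf* member was thus open in the early morula, much less so in the late morula, and open again in the ICM.

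The 3 members that rose were in introns of *Gsap* and *Flt3* and upstream of *Polr2m*. The *Gsap* member read 1.07, 0.92 and 1.06 in early and 3.02, 3.20 and 3.22 in late Ctrl morulae (rise of 2.13, SE 0.50, limma adjusted p 0.0037). The *Pde4a*, *Ubtf* and *Gsap* members were named here after their values were seen, as those with the smallest adjusted p or as 1 of few. Without late morula Ctrl replicate 1 the count of members lower was 29, and without early morula Ctrl replicate 1 or 2 it was 46 or 48. All peaks lower went from 4255 to 1893, 3004 and 2404 in the same order. In *Pou5f1*-KO embryos, 32 members (2.93%) fell and 0 rose between the same stages by limma, against 1.51% and 1.86% of all peaks, with 189 lower and 3 higher at an unadjusted p under 0.05, which is 17.3% and 0.275% of members against 6.76% and 9.59% of all peaks. The KO count was 7 without early morula KO replicate 1, 56 without early morula KO replicate 3 and 13 without late morula KO replicate 1. All peaks lower in KO went from 2308 to 876, 1535 and 470 in the same order.

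The starting level of the members in the morula varied widely. The 3 highest in *Pou5f1* Ctrl early morulae were those near *Socs2*, *Plbd1* and *Hps3*, and the member in an intron of *Hps3*, a gene of lysosome-related organelles, read 5.51, 5.80 and 6.11 in Ctrl early morulae and 6.05, 5.60 and 5.90 in Ctrl late morulae. It read 6.71, 5.99, 5.90 and 5.61 in Ctrl late ICM and 3.18, 1.45, 3.39 and 3.03 in *Pou5f1*-KO late ICM. In KO it read 5.36, 2.85 and 4.75 in early morulae (difference -1.49, limma adjusted p 0.073) and 5.01, 4.79 and 5.66 in late morulae (difference -0.70, limma adjusted p 0.67). Its Ctrl morula values thus lay near those of the Ctrl ICM, and neither morula difference passed the test. At the other end, the members near *Pde4d*, *Adgrb3* and *Vmn1r219* were near 0 in all Ctrl morulae, and the *Vmn1r219* member read 2.19, 2.10, 1.52 and 2.49 in *Pou5f1* Ctrl late ICM. Only 359 members (32.9%) had a Ctrl early morula mean above the median of all peaks.

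The composite OCT-SOX word was far more frequent in the members than in other peaks. It occurred in 407 members (37.3%), in 3.00% of all peaks and in 16.4% of the Oct4-only peaks. Among peaks by the number of ICM differences at or below -1.5, the share was 1.71% at 0, 10.8% at 1, 21.7% at 2 and 29.2% at 3. The octamer word alone (ATGCAAAT, at most 1 mismatch) was found in 49.8% of members and 54.7% of the Oct4-only peaks, against 15.7% of all peaks. The Sox words (CATTGT or CTTTGT) were found in 49.3% of members, 28.0% of the Oct4-only peaks and 25% of all peaks. These words overlap the composite word in part, and a match is a description of letters and not a bound site.

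Words of other factors were near their share in all peaks or less frequent, apart from the ESRRB word, which was somewhat more frequent. The KLF word (GGGTGTGG, at most 1 mismatch) was in 28.6% of members against 43.3% of all peaks, and the AP-2 word (GCCNNNGGC) in 5.04% against 11%. The TEAD word (GGAATG) was in 17% against 18.9%, the GATA word (AGATAA) in 17.4% against 17.5%, and the STAT word (TTCCNGGAA) in 1.01% against 0.986%. The ESRRB word (AAGGTCA) was in 11.8% against 9.66%, and in 17.3% of the Oct4-only peaks. The members had less G and C, with a median GC content of 44.5% against 50.0%, and the shares of words were not corrected for this.

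**Figure D3:**
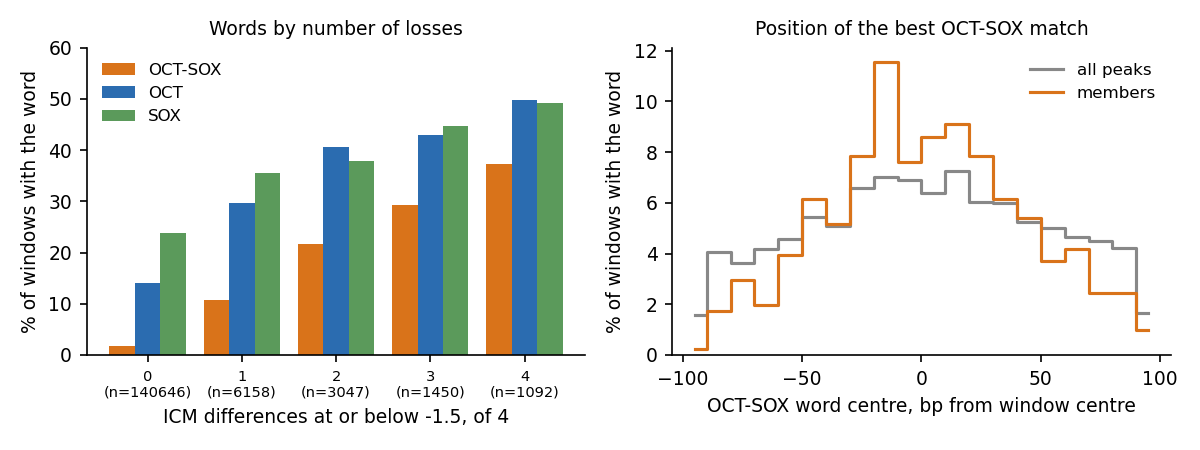
Left, share of windows with the OCT-SOX, OCT and SOX words for peaks with 0 to 4 of the ICM differences at or below -1.5 (4 are the members); right, distance in bp of the best OCT-SOX match from the window centre in members and all peaks with the word. The OCT-SOX share is 1.71% at 0 and 37.3% at 4, and 45.5% of the members' words lie within 25 bp of the centre, against 34.3%.

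The composite word lay near the middle of the members. It was within 25 bp of the window centre in 45.5% of the members that held it and within 50 bp in 75.4%, against 34.3% and 62.0% of all peaks that held it. More than 1 was held by 42 of the 407 members with the word, against 143 of the 4565 peaks with it. Within the word, position 10 was A in 64.6% and T in 33.2% of the members' words, against 81.7% and 15% in all peaks, which is the A10T change of the *Suz12*, *Socs2*, *Utf1* and *Klf5* lines above. By the fewest mismatches, 4 members matched the composite exactly, 94 had 1 mismatch, 309 had 2, 451 had 3 and 234 had 4 or more. The median differences in *Pou5f1*-KO late ICM were -3.70, -2.85, -2.84, -2.86 and -2.67 in that order. The rule set these medians a ceiling of -1.5, and nothing is read from them. Of all peaks with 0, 1, 2, 3 and 4 or more mismatches, 7.84%, 16.5%, 7.83%, 2.26% and 0.183% were members. In late morulae, 35 of the 407 members with the word fell (8.60%) and 30 of the 685 without it (4.38%), against 4.21% of all peaks with the word and 0.426% of all peaks without it.

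Many of the alike members lay in repeated DNA. Outside the families the median window had 13.5% of its bases masked as repeat in the reference, whereas in families 1 to 6 the median was 76.5%, 69.2%, 76.0%, 71%, 46.5% and 58.5%. Over all members the median was 34.5%, against 12.5% over all peaks. The reference used here marks repeats without naming them, so the kinds of repeat are not given. Peaks like a member were also more frequent among partly lost peaks. Their share was 5.23% at 0 ICM differences at or below -1.5, 14.7% at 1, 21.7% at 2 and 31.4% at 3, and 5.66% in the Oct4-only peaks. Reads were kept by the authors only where they mapped uniquely, the median identity of a family member to its closest other member was 91.5%, and 2 members were 95% or more identical over 180 bp. The effect of near copies on the values was not tested.

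The families differed in which word they carried. Family 1, with 123 members of 628 peaks in the series, held the composite word in 18.7% of members, and its most common best match was TTGTAATGCTTAA, in 35 members. Family 2, with 86 members of 212 peaks, held the octamer word in 97.7% of members but the composite within 2 mismatches in 9.30%, and 46 members shared the match TTCAATTGCAAAT, which keeps the octamer except for A6T and departs by G3C and T4A in the Sox part. Family 4, with 58 of 562 peaks, had 1 best match, with 3 mismatches, in common in 29 members. Family 5, the smallest in the series with 27 members of 48 peaks, held the composite in 96.3% of members, and 9 shared TTGTTGTGCAAAC. Family 6, with 15 of 130 peaks, held it in 93.3%, and 5 shared TTGTCTTGCAAAT. Family 3, with 62 of 956 peaks, held the composite in 4.84% of members and the octamer in 1.61%. The share of a family's peaks that were members thus ran from 6.49% in family 3 to 56.2% in family 5.

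The peaks of a family that were not members were lower in KO too, as a description. Their median differences in family 2 were -1.31 and -1.66 in *Pou5f1*-KO and -1.20 and -1.79 in *Sox2*-KO early and late ICM, and in family 5 they were -1.38, -1.77, -1.09 and -1.49. In the same order they were -0.88, -1.34, -0.96 and -1.26 in family 1, -0.52, -1.01, -0.71 and -1.62 in family 3, -1.10, -1.46, -0.65 and -1.19 in family 4 and -0.80, -1.30, -1.22 and -1.52 in family 6. The medians of the members in both knockouts also varied by family and stage. Members of family 3 had medians of -2.19 in *Pou5f1*-KO and -1.99 in *Sox2*-KO early ICM and of -2.68 and -3.07 in late ICM. Members of family 4 had -2.28 and -1.83 in early and -2.85 and -2.23 in late ICM, and members of family 6 had -1.82 and -2.24 in early and -2.39 and -2.32 in late ICM. In families 1, 2 and 5 the late ICM medians were -2.66, -3.12 and -3.01 in *Pou5f1*-KO and -2.67, -2.85 and -2.86 in *Sox2*-KO, and the early ICM medians were -2.16, -2.66 and -2.45 and -2.12, -2.23 and -2.24. None of these differences between families was tested.

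Family 3 was also nearly level between KO and Ctrl in the morula. Its median difference was -0.05 in early and -0.08 in late morulae and 0 of its 62 members fell in either, although its Ctrl levels of 2.60 and 1.81 were the highest or next to highest of the 6 families. Family 4 had medians of -0.89 and -0.92, from Ctrl levels of 2.26 and 1.82, and 4 and 9 of its 58 members fell. Families 1, 2, 5 and 6 had late morula medians of -0.57, -0.49, -0.55 and -0.46, and 3 of 123, 4 of 86, 1 of 27 and 0 of 15 members fell. Over all members 2.20% fell in early and 5.95% in late morulae, against 0.185% and 0.539% of all peaks, so counts of 0 or 1 in the small families show nothing about them. The members outside families had a median of -0.48, and 44 of the 681 fell in late morulae.

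**Figure D4:**
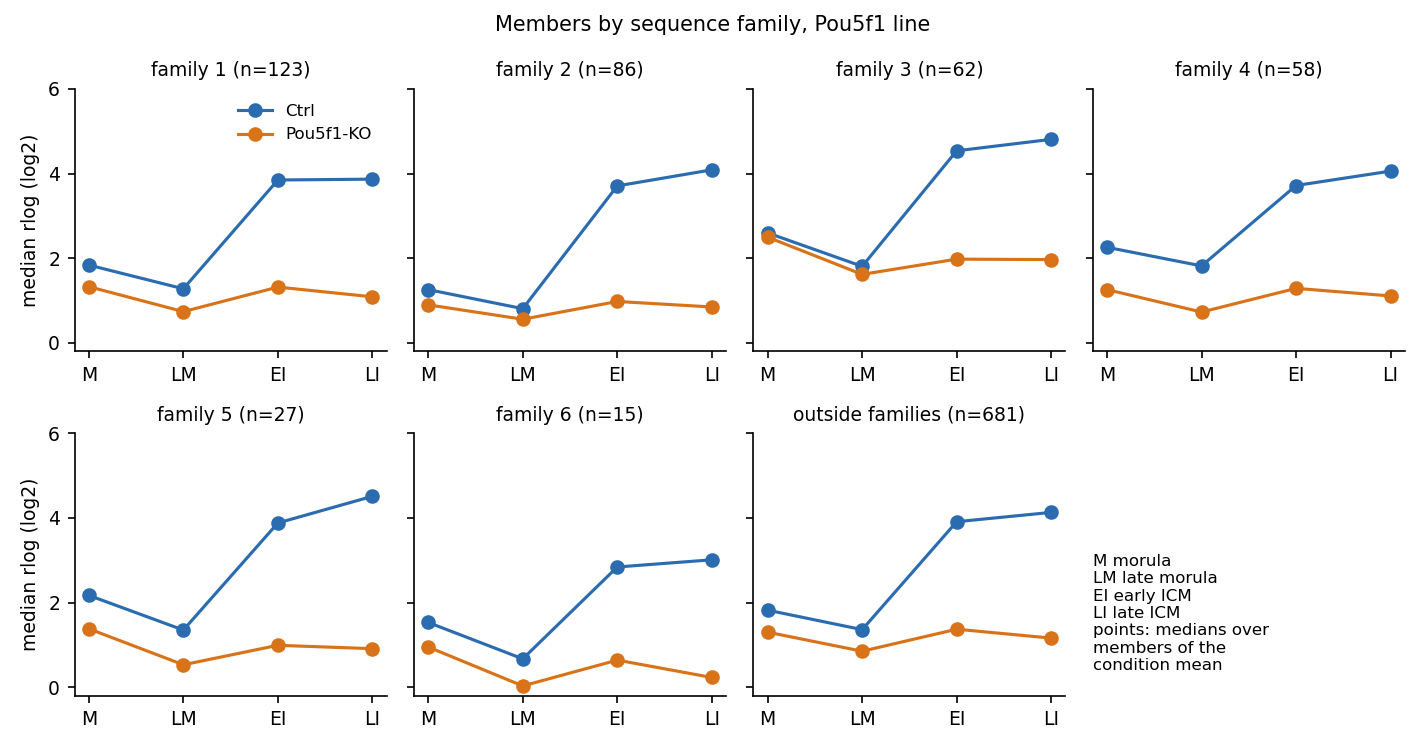
Median over members of the condition mean rlog (log2) in *Pou5f1* Ctrl (blue) and *Pou5f1*-KO (orange) at 4 stages, for the 6 large sequence families and for the members outside families. In family 3 the morula points of KO (2.50, 1.62) and Ctrl (2.60, 1.81) nearly coincide, and in family 4 they are apart (1.26, 0.73 and 2.26, 1.82), while in the ICM all panels show KO below Ctrl.

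Families 1, 2 and 3 often lay together. Of the 86 members of family 2, 22 had a member of family 1 within 2 kb and 19 a member of family 3, and of the 123 members of family 1, 12 had a member of family 3. The *Cntn5* windows given above are such a case, with the family 2 window from 11106333 and the family 1 window from 11107331 on chromosome 9. The family 2 window read from -4.21 to -2.75 in the 4 ICM differences and the family 1 window from -4.27 to -3.32. No member of family 4 or 5 had a member of family 1 or 2 within 2 kb.

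This is part of a wider grouping along the chromosomes. Taking members within 20 kb of the next as 1 chain, 257 members fell into 110 chains and 835 lay alone. The 28 chains of 3 or more held 93 members, of which 58 were in a sequence family and 51 in families 1 to 3. The chain beside *Cntnap5a* on chromosome 1 (113958099 to 113964759) had 5 members, every peak in its span was a member, and none of its windows held the composite word. Where the chain beside *Thsd7a* spanned 12815101 to 12835345 on chromosome 6, 3 of its 4 peaks were members and 2 held the word.

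The members lay far from promoters. Of all members 1076 (98.5%) were over 100 bp from every start site, against 89.4% of all peaks, and 64 (5.86%) lay within 1 kb, against 20.3%. By position 623 members (57.1%) were intergenic, 421 (38.6%) intronic and 48 (4.40%) in an exon of any kind, against 39.6%, 43.8% and 16.6% of all peaks. The median distance to the nearest coding start site was 35700 bp, against 16000 bp, and 322 members (29.5%) were over 100 kb away, against 12.1%. On the X chromosome lay 55 members (5.04%), against 2.90% of all peaks. The nearest coding genes numbered 860, and 163 of them were nearest to 2 or more members.

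Among genes with known roles in the early embryo, 9 lists were searched, and 20 members had a gene of the lists as the nearest. Of the 20, 9 lay within 10 kb of the start site and 11 held the composite word. Of these 20, 3 fell in *Pou5f1*-KO late morulae, 2 in early morulae and 1 from early to late Ctrl morulae, by limma, and 0 rose. Over all peaks 0.539%, 0.185% and 2.79% were lower in these comparisons, over all members 5.95%, 2.20% and 7.33%, and counts this small cannot tell the 20 from the other members. A member is assigned to a gene by distance alone, and transcription was not measured in these libraries.

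The naive pluripotency list had a member at 7 of its 33 genes, *Pecam1*, *Klf5*, *Tfap2c*, *Tet2*, *Dppa3*, *Utf1* and *Zfp42*, which is 0.641% of members against 0.475% of all peaks. The member 1.65 kb upstream of *Dppa3*, a maternal and germline factor that guards DNA methylation, read 4.20, 4.13 and 4.41 in Ctrl and 3.71, 1.66 and 2.18 in *Pou5f1*-KO early morulae (difference -1.73, limma adjusted p 0.067). It read 3.64, 3.55 and 3.60 in Ctrl and 1.16, 2.01 and 2.07 in KO late morulae and fell by 1.85 (SE 0.45, limma adjusted p 0.021). This call held without KO replicate 3 and was lost without any other 1 of the 6 libraries, with limma adjusted p from 0.052 to 0.19. In late ICM it read 5.35, 5.73, 5.70 and 5.74 in *Pou5f1* Ctrl and 1.52, 1.49, 1.52 and 3.15 in KO, and 5.04, 5.47, 5.29 and 5.26 in *Sox2* Ctrl and 3.22, 4.21, 2.83 and 3.16 in KO. The late ICM loss at this site was larger in *Pou5f1*-KO (-3.71) than in *Sox2*-KO (-1.91), and no KO library of late ICM reached a Ctrl library. In *Sox2* early ICM the ranges met, with KO replicate 2 and Ctrl replicate 3 both at 3.92.

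The *Tfap2c* member given above for early morulae also fell in late morulae, from 2.49, 3.58 and 3.57 in Ctrl to 1.12, 1.55 and 1.00 in KO (fall of 1.99, SE 0.45, limma adjusted p 0.0094). The late morula call was lost without KO replicate 1 or 3 or without Ctrl replicate 2 or 3, with limma adjusted p from 0.05 to 0.11. Its ICM differences were -3.02 and -3.43 in *Pou5f1*-KO and -1.68 and -1.56 in *Sox2*-KO. The member 46.8 kb upstream of *Zfp42*, which encodes the naive marker Rex1, belonged to family 4. It read 4.09, 2.86 and 3.40 in Ctrl and 2.19, 1.20 and 0.59 in KO early morulae (fall of 2.12, SE 0.49, limma adjusted p 0.025), and its late morula difference was -1.67 (limma adjusted p 0.095). The early morula call was lost with the replicate block (limma adjusted p 0.093), in the fit on the compared libraries alone (0.2) and without KO replicate 2 or 3 or Ctrl replicate 1 or 3. At both morula stages every KO library lay below every Ctrl library in both members.

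The member 1.83 kb downstream of the *Utf1* start site, a chromatin-bound pluripotency gene, read 5.41, 5.41, 5.20 and 4.85 in *Pou5f1* Ctrl and 1.37, 1.56, 1.73 and 1.33 in KO early ICM, and 4.98, 5.27, 5.05 and 5.20 in *Sox2* Ctrl and 2.30, 2.61, 3.06 and 4.08 in KO early ICM. The member in an intron of *Pecam1*, an adhesion molecule of ICM cells, belonged to family 5 and had ICM differences of -3.11 and -3.76 in *Pou5f1*-KO and -1.94 and -3.84 in *Sox2*-KO. One member lay 55.0 kb downstream of *Klf5*, a Krüppel-like factor gene. Another lay 32.3 kb upstream of *Tet2*, the gene of an enzyme that oxidizes methylcytosine. These members had ICM differences from -3.10 to -1.59, and their late morula differences of -0.47 and -0.48 both had a limma adjusted p of 0.91.

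The LIF pathway carries the cytokine signal that sustains naive cells, through the receptors Lifr and gp130 and the kinase Jak. It had 4 members at 3 of 11 genes, 0.366% of members against 0.121% of all peaks. The member 1.33 kb upstream of *Il6st*, the gene for gp130, read 5.19, 5.00, 4.99 and 4.78 in *Pou5f1* Ctrl and 0.85, 1.39, 0.26 and 2.32 in KO late ICM, and 5.40, 5.13, 4.83 and 4.32 in *Sox2* Ctrl and 0.19, 1.26, 0.83 and 0.74 in KO late ICM. In late morulae it was closed in both genotypes, at 0.34, -0.05 and 0.98 in Ctrl and 0.55, -0.19 and 0.45 in KO (difference -0.15, limma adjusted p 0.98). It was thus near 0 in late morulae of both genotypes and high in the ICM of Ctrl embryos alone.

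Both *Lifr* members, in an intron of the LIF receptor gene less than 1 kb apart, had ICM differences from -3.20 to -1.75. The member in an intron of *Jak2* had differences from -2.87 to -2.13 and read 1.64, 2.81 and 2.79 in Ctrl and 0.73, 0.70 and 0.63 in KO late morulae, without overlap (difference -1.72, limma adjusted p 0.12). The FGF and ERK list had 1 member, within *Fgf4*, the epiblast ligand for primitive endoderm, with differences from -3.58 to -1.55 in the ICM and 0.58 in late morulae (limma adjusted p 0.86). The Nodal and BMP list had 0 members among its 205 peaks, and the formative and primed list had 0.

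The chromatin regulator list had 5 members at 4 of 17 genes, 0.458% of members against 0.185% of all peaks. Of the 5, 4 were nearest to genes of core subunits of Polycomb repressive complex 2, which methylates histone H3 lysine 27. This grouping was not one of the lists, and its share of all peaks was not counted. The *Suz12* member, 12.2 kb upstream, had ICM differences of -2.63 and -3.62 in *Pou5f1*-KO and -1.82 and -2.34 in *Sox2*-KO. The nearer *Eed* member, 26.2 kb upstream, had -2.53 and -3.79 and -2.84 and -2.63. The farther one, 44.1 kb upstream, which holds the word given above, had -1.73 and -3.04 and -3.62 and -3.36. The *Ezh2* member, 6.62 kb upstream of the gene for the methyltransferase subunit, had -2.27 and -2.30 and -2.11 and -2.53. It read 2.73, 2.20 and 3.61 in Ctrl early and 0.42, 1.30 and 1.03 in Ctrl late morulae and fell by 1.93 between them (SE 0.50, limma adjusted p 0.0082). The fifth member, 1.49 kb upstream of the histone deacetylase gene *Hdac1*, had ICM differences from -2.52 to -1.52.

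The trophectoderm and primitive endoderm lists had 1 member each. The member 71.8 kb upstream of *Eomes*, a T-box factor gene of the trophectoderm, belonged to family 5. It had differences of -1.83 and -2.01 in *Pou5f1*-KO and -2.86 and -2.17 in *Sox2*-KO. The member 6.85 kb upstream of *Sox7*, an endoderm factor gene, had -2.41 and -2.57 and -1.74 and -1.88.

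**Figure D5:**
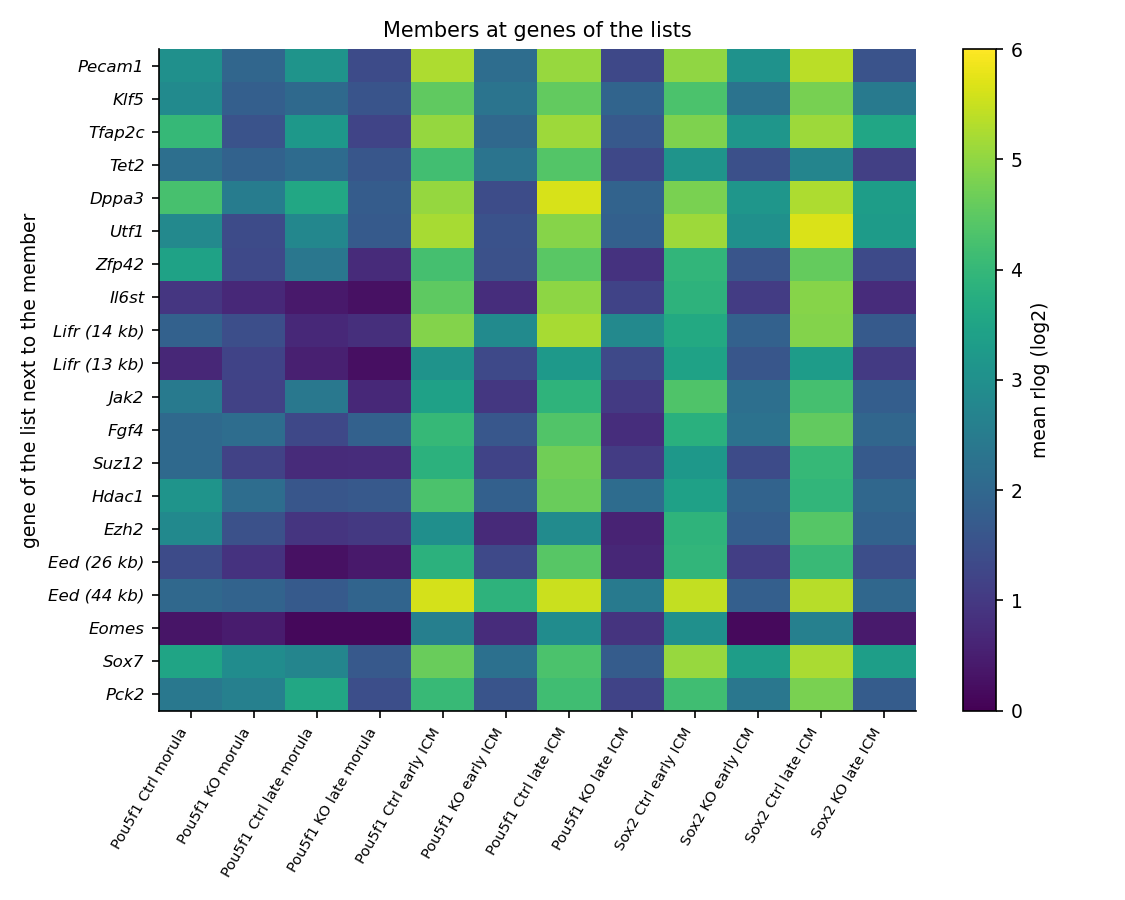
Mean rlog (log2, colour) in the 12 groups for the 20 members at genes of the lists, 1 row per member, with the distance to the start site where a gene has more than 1. In every row the ICM columns are brighter in Ctrl than in KO, and the morula columns differ from row to row, bright in Ctrl for *Dppa3* and dark throughout for *Il6st*.

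The size of the loss differed between the knockouts at single members. The 3 members with the largest excess loss in *Pou5f1*-KO were near *Socs2*, *Ncam2* and *Tbl1xr1*. The *Socs2* member read 6.28, 6.61, 6.75 and 6.72 in *Sox2* Ctrl and 5.26, 5.01, 4.66 and 5.06 in *Sox2*-KO late ICM, and 6.39, 5.97, 6.38 and 6.27 in *Pou5f1* Ctrl and 1.92, 2.07, 1.12 and 3.17 in *Pou5f1*-KO. It remained well accessible without Sox2 (difference -1.59) and was largely lost without Oct4 (difference -4.18). The *Tbl1xr1* member fell by 2.19 in *Pou5f1*-KO late morulae too (SE 0.44, limma adjusted p 0.0018).

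The 3 members with the largest excess loss in *Sox2*-KO were near *Mms22l*, *Olfr857* and *Cobl*, and the last 2 belonged to family 3. The *Cobl* member, far upstream of a gene for an actin nucleator, read 6.43, 5.34, 5.66 and 5.91 in *Pou5f1* Ctrl and 4.48, 3.71, 2.91 and 4.70 in KO late ICM. In the *Sox2* line it read 6.61, 6.14, 6.16 and 5.82 in Ctrl and 1.55, 2.50, 2.04 and 2.03 in KO. The differences were -1.89 and -4.15, the reverse of the *Socs2* member. In late morulae it read 3.37, 3.21 and 3.49 in Ctrl and 3.63, 3.59 and 3.66 in *Pou5f1*-KO (difference 0.27, limma adjusted p 0.96). These 6 members were chosen for the difference between the knockouts, which is given without a test.

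The stages differed most in members near *Pabpc5*, *Tigd2* and *Hpgd*, where late ICM had the larger loss, and near *Hmgn5*, *Sdk1* and *Synrg*, where early ICM had it. The *Hpgd* member had differences of -3.01 and -1.71 in *Pou5f1*-KO and *Sox2*-KO early ICM and -4.41 and -3.60 in late ICM. The *Hmgn5* member, 1.58 kb upstream of a gene for a nucleosome-binding protein on the X chromosome, had -2.73 and -2.21 in early and -1.54 and -1.68 in late ICM. The *Synrg* member had -2.97 and -2.81 in early and -1.90 and -1.77 in late ICM, and it was among the members that fell in early *Pou5f1*-KO morulae, where it read 3.12, 3.90 and 3.19 in Ctrl and 1.47, 1.20 and 0.60 in KO (fall of 2.31, SE 0.48, limma adjusted p 0.0092). That call was lost with the replicate block (limma adjusted p 0.058), in the fit on the compared libraries alone (0.12) and without KO replicate 3 or Ctrl replicate 2.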

How the data were processed

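ATAC-seq was measured in 44 libraries of pooled embryos. The deposited values are rlog values, on a log2 scale, in 200 bp windows. Per the study's methods and labels, the authors trimmed reads with SeqPurge, aligned them to mm10 with Bowtie2, dropped duplicates with Picard and reads that did not map uniquely, applied the Tn5 offset, called peaks with MACS2, kept summits found in at least 2 replicates, counted transposon insertions, the 5′ ends of the shifted reads, with BEDTools and transformed the counts with DESeq2. The deposited condition means equalled the means of the libraries. Counts were not used here, so depth and the counting error of each window are unknown, the spread between libraries is the error used, and the transformation shrinks differences of weak peaks.

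Members were chosen from the deposited means. The members, gene lists, words and comparison set were chosen with earlier results of these data known, and the sequence families were added later. Contrasts outside the rule were fitted in limma 3.58.1 (R 4.3.3, eBayes with trend, 1 mean per condition) on all 152393 peaks and 44 libraries, two-sided, with Benjamini-Hochberg adjustment over all peaks and calls at an adjusted p under 0.05. The fit was also run on simulated data with 1 spread per peak for all groups, which cannot speak to groups of unequal spread. Same-numbered Ctrl and KO libraries deviated together across peaks in late morulae (correlations 0.141, 0.192 and 0.109) and in early morulae (0.111, 0.048 and 0.153). The numbers may thus pair them, which is not stated. The main fit did not pair them, and a block on the number was run as an alternative at either stage. Named members were those with the 8 largest mean ICM losses, the 2 on each side of the limit, all called in *Pou5f1*-KO early morulae, the 5 smallest adjusted p in late morulae, the 3 highest and 3 lowest in Ctrl early morulae, the 3 most unequal in each direction between knockouts and between stages, those at listed genes (nearest start site, or inside the gene within 100 kb), those within 10 kb of *Pou5f1* and *Sox2*, and chains of 3 or more. Some items that these rules select are not reported here. Sequences came from the GRCm38 reference and distances from GENCODE annotation of that build, to the nearest protein-coding start site. Families were found with blastn 2.17.0. Alternatives were quantile normalization, fits on the compared groups alone, a filter on weak peaks, a replicate block, other limits of the rule and of the words, and leaving out each library.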

Additional observations from a re-analysis of the deposited data

Results flagged for a closer look

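Of 168 groups of 4 libraries examined, 9 (5.36%) held a library whose gap to the nearest of the others passed the 95% limit of Dixon's test, and chance gives about 1 in 20. The median of all members was 1.91 in *Sox2*-KO early ICM replicate 4, while the other 3 libraries lay between 1.47 and 1.48. At single members, the separate library read 5.52 at *Pecam1* and 2.13 at *Eomes*, both in *Sox2* Ctrl early ICM. It read 1.99 at *Jak2*, 4.65 at *Hdac1* and 4.75 at *Sox7* in *Pou5f1* Ctrl early ICM. At *Dppa3* it read 5.35 in *Pou5f1* Ctrl late ICM and 3.15 in *Pou5f1*-KO late ICM, and at *Pck2* 4.13 in *Sox2* Ctrl late ICM. The causes were not tested.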

How the results depend on the processing

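Depth is unknown, and 3 or 4 libraries per group limit every comparison. The count of members lower in *Pou5f1*-KO early morulae was 24, and 38 after quantile normalization, 3 in a fit on the compared libraries alone and 10 with a replicate block, where the same-numbered libraries correlated at 0.111, 0.048 and 0.153. Leaving out 1 library moved it between 0 and 111, and the count of all peaks lower between 12 and 962. In late morulae the 65 became 108 with the replicate block and lay between 25 and 39 with 1 library left out. From early to late morulae the 80 lower in Ctrl became 121 and the 32 lower in KO became 52 after quantile normalization. With 1 library left out these counts ran from 29 to 64 and from 7 to 56, and the members higher in Ctrl from 1 to 3. The rule gave 2776 members at a limit of -1, 402 at -2 and 1012 to 1179 with 1 ICM library left out. The share of members with the OCT-SOX word was 8.97% at 1 mismatch and 78.6% at 3, and that of members near a start site 1.47% at 100 bp and 5.86% at 1 kb. Among single named members 13 values in late morulae and 119 in early morulae no longer passed under an alternative, 5 and 2 newly passed, and 0 reversed. The causes were not tested.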
